A study of Mus musculus with 6 samples.

Results

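The genes described are 35 members of the glycolytic pathway and of the transcriptional response to low oxygen, picked by symbol out of 23494 genes in the deposited table. All 35 had a row and a mean of at least 1 TPM (a share of the library's transcripts, corrected for transcript length and scaled to a fixed total), so all were tested. They comprise 4 genes of glucose entry, 9 of upper and 6 of lower glycolysis, 5 of lactate and pyruvate handling, 3 of oxygen sensing and 8 further targets of hypoxia.

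RNA was sequenced from samples labelled heart, taken from wild type female C57BL/6 mice, whose age the labels do not state. Every mouse carried a subcutaneous B16F10 melanoma, a transplantable mouse tumour, so no group was free of tumour. In 3 mice recombinant MANF (rMANF; the protein resides in the endoplasmic reticulum and can leave the cell) was injected into the peritoneum daily at 2 µg/kg, and 3 mice received phosphate-buffered saline (vehicle). Treatment started once tumours averaged about 60 mm3 in 8 mice per group, and the labels do not say how 3 of them were chosen. IgG stands at the start of the vehicle column names, while vehicle is the treatment in the labels. The 3 libraries of a group are called biological replicates and are read as separate mice.

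Glycolysis splits glucose into pyruvate and yields a little ATP without oxygen. When oxygen is short, prolyl hydroxylases stop marking the transcription factor HIF-1α for destruction, and HIF-1 then raises glucose transporters, most glycolytic enzymes, lactate dehydrogenase A, lactate exporters and vessel growth factors. Healthy adult heart muscle burns mainly fatty acids and lactate, and carries the B subunit of lactate dehydrogenase, the muscle type phosphofructokinase and the insulin-regulated glucose transporter encoded by Slc2a4.

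The isoforms present went against that picture of heart muscle and with the marker genes. The 16 heart muscle markers summed to 10.8 to 14.9 TPM in rMANF and 13.1 to 110 TPM in vehicle libraries, with the atrial peptide gene Nppa at no more than 0.541 TPM. Ldhb, the heart type lactate dehydrogenase subunit, was barely present. It measured 0.696, 1.16 and 0.706 TPM in rMANF libraries, against 0.931, 2.29 and 1.06 TPM in vehicle libraries. Ldha, its counterpart of glycolytic tissue, measured 2244, 2042 and 1955 TPM in rMANF libraries, against 1815, 2078 and 2047 TPM in vehicle libraries. Ldhb was therefore 0.0310% to 0.0568% of Ldha plus Ldhb transcripts with rMANF and 0.0513% to 0.11% with vehicle. Slc2a4 lay at 0.177 to 0.837 TPM with rMANF and 0.340 to 1.56 TPM with vehicle. Pdk4, the pyruvate dehydrogenase kinase of fasting heart, lay at 0.0730 to 0.219 TPM with rMANF and 0.0237 to 1.18 TPM with vehicle. Eno3, the muscle enolase gene, did not share this low level and measured 141 to 159 TPM with rMANF and 125 to 172 TPM with vehicle. Slc2a4, Pdk4 and Eno3 were picked for this check after their values had been seen. The samples are called libraries labelled heart for this reason.

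The promoters of 5 members are shown. The values of these members did not overlap between the treatment groups. Each promoter shown also holds the core of the hypoxia response element, the DNA motif that HIF-1 binds. Hk1, Pkm and Pfkfb3 also met both conditions and are not shown. Neither condition is particular to these genes. The groups did not overlap for 28.0% of all tested genes, and 61.2% of tested genes with a promoter held a core. No tested gene passed limma's test at an adjusted p of 0.05. A link between the core and the differences was not tested. Each sequence gives the 250 bases before a RefSeq transcription start on GRCm38.p6, written 5′ to 3′ on the gene's strand. Capitals mark ACGTG or GCGTG, or their reverse complements CACGT or CACGC. Slc16a3, Slc2a1, Pfkl and Pdk1 lay higher with rMANF, and Car9 lay lower.
Slc16a3 (lactate exporter; chr11:120948817-120949066, plus strand): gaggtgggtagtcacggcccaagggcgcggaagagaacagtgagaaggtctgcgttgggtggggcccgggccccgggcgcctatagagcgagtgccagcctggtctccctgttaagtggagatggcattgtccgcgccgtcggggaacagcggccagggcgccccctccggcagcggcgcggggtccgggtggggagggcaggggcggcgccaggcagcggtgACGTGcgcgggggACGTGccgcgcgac
Slc2a1 (glucose transporter; chr4:119108495-119108744, plus strand): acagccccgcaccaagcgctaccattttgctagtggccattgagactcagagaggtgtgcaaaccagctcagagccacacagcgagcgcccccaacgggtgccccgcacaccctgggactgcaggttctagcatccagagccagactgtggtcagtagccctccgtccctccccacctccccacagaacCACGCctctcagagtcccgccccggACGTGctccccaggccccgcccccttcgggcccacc
Pfkl (liver type phosphofructokinase; chr10:78009808-78010057, minus strand): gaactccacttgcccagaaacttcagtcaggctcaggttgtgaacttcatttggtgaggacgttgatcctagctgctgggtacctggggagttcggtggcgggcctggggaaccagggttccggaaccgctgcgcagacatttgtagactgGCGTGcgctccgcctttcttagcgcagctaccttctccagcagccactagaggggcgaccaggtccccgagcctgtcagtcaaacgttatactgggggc
Pdk1 (pyruvate dehydrogenase kinase; chr2:71872974-71873223, plus strand): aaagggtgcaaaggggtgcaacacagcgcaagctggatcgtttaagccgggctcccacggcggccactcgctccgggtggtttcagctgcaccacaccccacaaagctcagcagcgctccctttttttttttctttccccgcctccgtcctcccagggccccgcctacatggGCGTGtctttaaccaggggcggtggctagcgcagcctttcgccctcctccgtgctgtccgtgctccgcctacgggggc
Car9 (surface carbonic anhydrase; chr4:43506776-43507025, plus strand): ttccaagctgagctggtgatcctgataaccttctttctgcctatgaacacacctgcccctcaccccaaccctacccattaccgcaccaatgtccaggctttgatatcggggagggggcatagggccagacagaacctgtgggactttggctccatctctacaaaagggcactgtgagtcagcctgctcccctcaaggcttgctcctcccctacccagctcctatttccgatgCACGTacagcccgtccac

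The cores of Slc16a3 begin 27 and 14 bases before the start site, those of Slc2a1 61 and 36 bases, and that of Car9 18 bases before it. The cores of Pfkl and Pdk1 begin 99 and 78 bases before their start sites, and a second RefSeq start of Pdk1 has no core. Promoters were found for 33 members, all but Slc2a3 and Ndrg1. Of these 33 genes 30 (90.9%) held at least 1 core in the window, searched on both strands, against 61.2% of the 9389 tested genes with a promoter. A CACGTG sequence counts on both strands. Median GC content of the windows was 60.4% for members and 59.6% for tested genes. A core was found in 6 of 7 genes that lay higher without overlap, in 2 of 3 that lay lower, and in 22 of 23 whose groups overlapped. Many members were listed because they are known HIF targets, so the share of members with a core is a description of the list, and these counts say nothing on a link with direction.

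The 35 members held 1.54% to 1.63% of all transcripts in rMANF libraries and 1.38% to 1.61% in vehicle libraries. Gapdh, which oxidises glyceraldehyde phosphate, held the largest amount. It measured 5397, 5561 and 5272 TPM in rMANF libraries, against 4864, 6047 and 5681 TPM in vehicle libraries, and ranked 21st of all genes by mean level. Rank 85 belonged to Ldha, and Eno1 (enolase), Tpi1 (triosephosphate isomerase), Pkm (pyruvate kinase), Aldoa (aldolase) and Pgk1 (phosphoglycerate kinase) ranked 107 to 137. The lowest members were Ldhb, Eno2 and Aldoc, whose means over all libraries ranked 12616, 11923 and 10966.

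None of the 35 passed limma's test at an adjusted p of 0.05, and none of the 12865 tested genes did (0.00%). At an unadjusted limma p under 0.05 there were 9 of 35 members (25.7%), against 20.5% of all tested genes. Of these 8 lay higher (13.9% of all genes did) and 1 lower (6.63%). Only Slc16a3 had an adjusted p under 0.10, 1 of 35 members, against 2.73% of tested genes. With 1 library left out this threshold was passed by 0 to 5 members and 0 to 1120 genes. The most passed without vehicle replicate 1, at 5 of 35 members and 1120 of 12817 tested genes. Leaving out a library also weakens the test, so a smaller count does not show that the full count rests on that library. The 3 rMANF values lay above the 3 vehicle values for 7 of 35 members (20%), against 18.9% of all tested genes, and below them for 3 members (8.57%), against 9.02%. In either direction this made 10 members (28.6%), against 28.0%. These shares are near the background, so the groups separated about as often for the members as for the transcriptome. Leaving out a library can only keep or raise these counts, since fewer values have to separate. Without vehicle replicate 1, 11 members lay higher and 5 lower, beside 32.2% and 12.9% of all genes. Without rMANF replicate 3, 11 lay higher, beside 24.0% of all genes. With libraries weighted by their spread limma called 3 of 35 members, Pfkl, Slc16a3 and Car9, against 737 of all 12865 tested genes. The median log2 difference over members was 0.07, beside 0.04 over all tested genes. Of the 35 differences 25 (71.4%) were above 0, against 57.3% of all tested genes. Under median-of-ratios scaling 19 of 35 were above 0, and the share of all genes was not counted. The median under that scaling was 0.032 over members and 0.0052 over all tested genes.

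**Figure D1:**
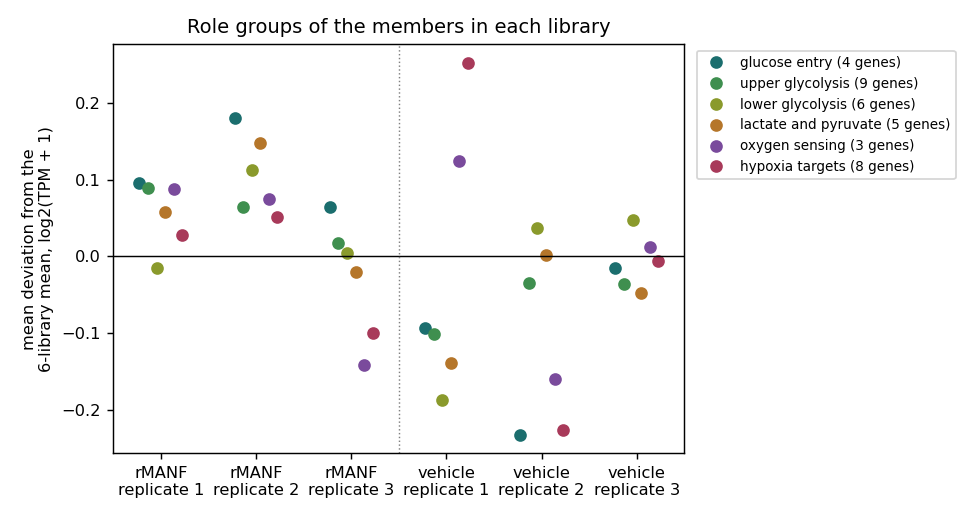
Mean deviation of each role group from its 6-library mean, in log2(TPM + 1) units, by library, with 1 point per role group. In vehicle replicate 1 the hypoxia targets stood at 0.25 and lower glycolysis at −0.19, a spread wider than in any other library.

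Glycolytic genes and hypoxia targets did not move together between vehicle libraries, as the plot of role groups by library shows. Vehicle replicate 1 was the lowest of the 6 libraries for 10 of the 19 genes of glucose entry and glycolysis. In the same library 7 of the 11 genes of oxygen sensing and hypoxia targets were at their highest. Vehicle replicate 2 was the lowest library for 7 of those 11. Over all tested genes vehicle replicate 1 was lowest for 17.2% and highest for 33%, and vehicle replicate 2 was lowest for 37.7%. Markers of other cells also differed between these libraries. Neutrophil markers (11 of 12 with a row, none at 0 in all libraries) summed to 21.1 to 40.9 TPM with rMANF. In vehicle replicates 1, 2 and 3 they summed to 222, 47.0 and 27.8 TPM. The 20 skeletal muscle markers summed to 11.6 to 25.7 TPM with rMANF and to 131, 1409 and 32.9 TPM in vehicle replicates 1, 2 and 3. Their part in the member values was not tested.

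In glucose entry all 4 differences were above 0, although that of Hk2 turned to −0.018 under quantile normalization. Slc2a1, the basal glucose transporter, measured 127, 136 and 117 TPM in rMANF libraries, against 99.8, 92.0 and 108 TPM in vehicle libraries. The groups did not overlap, and rMANF replicate 3 and vehicle replicate 3 lay nearest to each other. The log2 difference was 0.34 ± 0.10 (limma SE; adjusted p = 0.128). Hk1, a hexokinase that traps glucose in the cell by phosphorylation, measured 57.3, 57.6 and 55.0 TPM in rMANF libraries, against 50.6, 36.0 and 47.6 TPM in vehicle libraries. Its 3 rMANF values were tightly grouped and vehicle replicate 2 was the lowest. The difference was 0.35 ± 0.13 (limma adjusted p = 0.189), and 0.20 without vehicle replicate 2. Hk2, the inducible hexokinase and a HIF target, was nearly flat at 24.3 to 26.9 TPM over all libraries, with a difference of 0.04 ± 0.08. Slc2a3, a high affinity glucose transporter, measured 8.02 ± 0.410 TPM with rMANF and 6.99 ± 1.08 TPM with vehicle (SD, n = 3 each), with overlap.

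**Figure D2:**
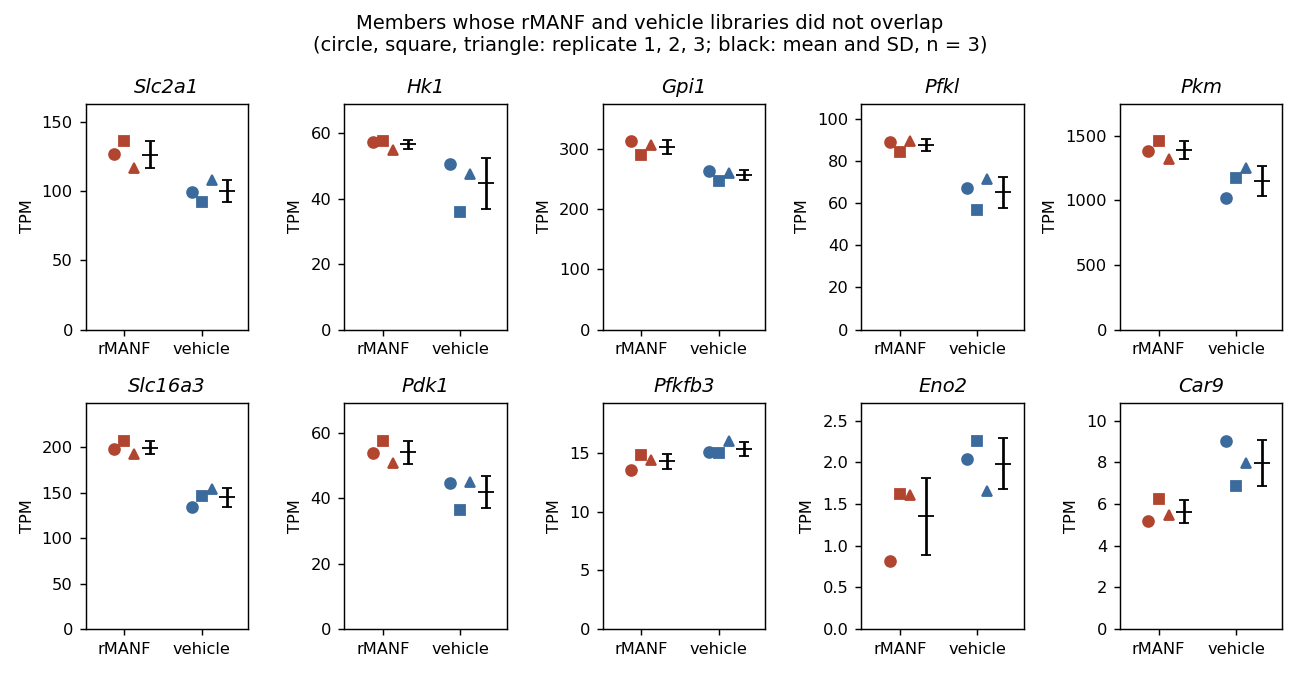
TPM per library for the 10 members whose groups did not overlap, rMANF left and vehicle right, with mean and SD (n = 3). Pfkl sits at 84.6 to 89.6 TPM with rMANF and at 57.1 to 71.4 TPM with vehicle, whereas Eno2 groups are separated by less than 0.1 TPM.

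In upper glycolysis Gpi1 and Pfkl lay higher. Gpi1, which turns glucose 6-phosphate into fructose 6-phosphate, measured 313, 290 and 306 TPM in rMANF libraries, against 264, 247 and 259 TPM in vehicle libraries. Its within-group spread was among the lowest of the members, and the difference was 0.24 ± 0.07 (limma adjusted p = 0.145). Pfkl, the liver type subunit of phosphofructokinase, the committing enzyme of the pathway, measured 89.1, 84.6 and 89.6 TPM in rMANF libraries. In vehicle libraries it measured 67.4, 57.1 and 71.4 TPM. The difference of 0.43 ± 0.10 (limma adjusted p = 0.101) was 0.29 once each library's trend with transcript GC content was removed. Pfkp, the platelet type, and Pfkm, the muscle type, overlapped between groups with differences of 0.08 ± 0.09 and 0.14 ± 0.11. Vehicle replicate 2 moved both, to 0.0039 for Pfkp and 0.24 for Pfkm when left out, and without vehicle replicate 1 they were 0.15 and 0.081. Tpi1, the most abundant gene of this group, measured 1356, 1433 and 1258 TPM in rMANF libraries, against 1087, 1269 and 1377 TPM in vehicle libraries. These overlapped, and a processed copy, Tpi-rs11, which shares 9.06% of the Tpi1 31-base words, was listed at 55.3 to 124 TPM with rMANF. It was listed at 54.5, 55.3 and 903 TPM in vehicle replicates 1, 2 and 3, so the split of reads between the copies is uncertain in vehicle replicate 3.

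Pfkfb3, which makes the activator of phosphofructokinase, lay slightly lower at 13.5, 14.8 and 14.4 TPM in rMANF libraries, against 15.0, 15.0 and 16.0 TPM in vehicle libraries. The gap between groups was small, at a difference of −0.10 ± 0.09 (limma adjusted p = 0.580). Pfkfb4, its relative, measured 7.92 to 10.3 TPM with rMANF and 8.54 to 9.92 TPM with vehicle. Aldoa and Aldoc, aldolase forms of muscle and brain, differed by −0.05 ± 0.11 and 0.26 ± 0.18, with overlap.

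In lower glycolysis Pkm lay higher and the most abundant enzymes did not separate. Pkm, the last enzyme of the pathway, measured 1383, 1455 and 1315 TPM in rMANF libraries, against 1020, 1168 and 1251 TPM in vehicle libraries. Vehicle replicate 1 was the lowest, and the difference of 0.28 ± 0.10 (limma adjusted p = 0.169) was 0.12 with the GC trend removed. The table is per gene, so the splice forms of Pkm cannot be told apart. Pgam1, phosphoglycerate mutase, showed a larger difference of 0.38 ± 0.14 (limma adjusted p = 0.190), but its lowest rMANF value of 149 TPM lay below the highest vehicle value of 158 TPM. Gapdh, Pgk1 and Eno1 differed by −0.03 ± 0.10, 0.11 ± 0.11 and 0.03 ± 0.09. The sign turned under quantile normalization for Gapdh (0.03) and under median-of-ratios scaling for Eno1 (−0.01). Eno2, the enolase of neurons, measured 0.812, 1.62 and 1.61 TPM in rMANF libraries, against 2.04, 2.26 and 1.65 TPM in vehicle libraries. All 3 rMANF values were lower, by a margin much smaller than the spread within either group.

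Slc16a3, the exporter that carries lactate out of glycolytic cells, had the smallest p of the 35 members. It measured 199, 208 and 193 TPM in rMANF libraries, against 134, 146 and 154 TPM in vehicle libraries. Every rMANF library lay well above every vehicle library. The log2 difference was 0.46 ± 0.08 (limma adjusted p = 0.0893), which is a mean 37.8% higher. Across the alternatives it stayed between 0.33, with the GC trend removed, and 0.51, and its limma adjusted p lay between 0.0266 with library weights and 0.280. Pdk1, which slows the entry of pyruvate into mitochondria, measured 53.7, 57.6 and 50.8 TPM in rMANF libraries, against 44.6, 36.3 and 45.1 TPM in vehicle libraries. Its groups did not overlap, with a difference of 0.36 ± 0.11 (limma adjusted p = 0.139). Unlike Slc16a3 it has a low GC content of 46.4%, and its difference was 0.40 with the GC trend removed. Ldha and Slc16a1, a lactate carrier of wide tissue range, differed by 0.07 ± 0.09 and 0.08 ± 0.08, and both overlapped. Ldhb differed by −0.35 ± 0.27 at levels near 1 TPM.

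Oxygen sensing genes were close to equal between groups. Hif1a, the oxygen-regulated subunit of HIF-1, measured 112, 112 and 93.7 TPM in rMANF libraries, against 125, 89.8 and 102 TPM in vehicle libraries. Both the highest and the lowest value were vehicle libraries, and the difference was 0.01 ± 0.13 (limma adjusted p = 0.982). Its 2 hydroxylases of the list, Egln1 and Egln3, which mark HIF-1α for destruction, differed by 0.04 ± 0.09 and by less than 0.01 ± 0.11. These near-zero differences all fell below 0 with either median-of-ratios or quantile scaling. HIF-1α is regulated mainly as a protein, which RNA does not measure.

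Among hypoxia targets Car9 stood apart from the others. Car9, the surface carbonic anhydrase that buffers acid outside hypoxic cells, measured 5.18, 6.25 and 5.47 TPM in rMANF libraries, against 9.04, 6.87 and 7.99 TPM in vehicle libraries. Its groups did not overlap, and the difference was −0.43 ± 0.13 (limma adjusted p = 0.146). It lay between −0.52 and −0.28 in all 18 alternatives. Vegfa, the main vessel growth factor, measured 42.3, 41.4 and 32.2 TPM in rMANF libraries, against 48.1, 37.0 and 41.0 TPM in vehicle libraries. These overlapped, with a difference of −0.12 ± 0.14 (limma adjusted p = 0.665).

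Ndrg1, a stress response gene and the most abundant of this group, measured 193, 200 and 188 TPM in rMANF libraries, against 191, 154 and 181 TPM in vehicle libraries. Vehicle replicate 1 reached into the rMANF range, and the difference was 0.15 ± 0.10 (limma adjusted p = 0.412). Without vehicle replicate 2 it was 0.063. Ankrd37, an ankyrin repeat gene induced by HIF-1, measured 17.8 to 25.2 TPM with rMANF and 14.6 to 20.6 TPM with vehicle. Bnip3, a mitophagy receptor, and Adm, the vasodilator adrenomedullin, differed by −0.03 ± 0.09 and −0.02 ± 0.18. P4ha1 and P4ha2, collagen prolyl hydroxylase subunits, each differed by 0.03, with SEs of 0.16 and 0.21. P4ha2 and Adm had some of the widest spreads within groups. P4ha2 measured 46.0 to 53.5 TPM with rMANF and 36.7 to 68.3 TPM with vehicle, where replicate 1 was the highest. Without vehicle replicate 1 the P4ha2 difference was 0.28 and that of Adm 0.16.

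**Figure D3:**
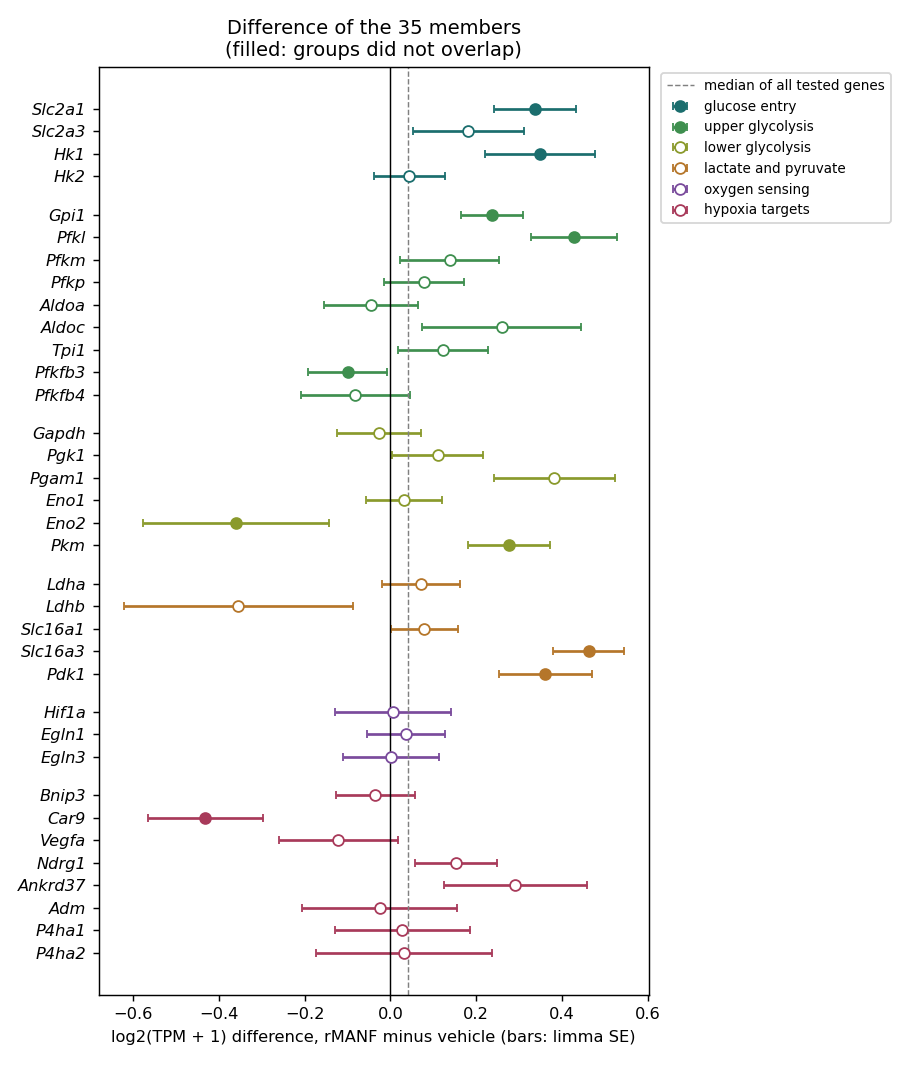
Log2(TPM + 1) difference, rMANF minus vehicle, for each of the 35 members by role, with limma SE. Filled points are members whose groups did not overlap and the dashed line is the median of all tested genes (0.04). Slc16a3 is highest at 0.46 and Car9 lowest at −0.43.

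Isoform choice was compared as shares within a library. Scaling a whole library leaves such shares as they are, but a trend with GC content does not. Slc16a3 (56.6% GC) differed by 0.46 and Slc16a1 (42.9% GC) by 0.08, and with the GC trend removed they differed by 0.33 and 0.15. Pfkl (57.1% GC) differed by 0.43 and Pfkp (48.0% GC) by 0.08, and with the GC trend removed by 0.29 and 0.10. These contrasts between isoforms were therefore smaller without the GC trend, whose part in the shares was not tested further. Slc16a3 made up 62.2% ± 0.505 of Slc16a1 plus Slc16a3 transcripts with rMANF and 55.8% ± 2.21 with vehicle (SD, n = 3 each). Pfkl was 44.4% ± 0.793 of phosphofructokinase transcripts with rMANF and 38.6% ± 2.23 with vehicle. Pfkp was 47.3% ± 0.274 with rMANF and 52.5% ± 2.09 with vehicle. Hk2 was 31.2% ± 0.830 of Hk1 plus Hk2 with rMANF and 36.1% ± 4.003 with vehicle. Vehicle replicate 2 was at 40.7% and the other vehicle libraries at 33.8%, and without it the Hk2 share difference was −2.53 in place of −4.84 percentage points. In these 4 shares the groups did not overlap, and each had an exact two-sided permutation p of 0.1, the smallest that 3 against 3 allows (0.225 after Benjamini-Hochberg adjustment over 9 shares). Pfkl and Pfkp are parts of the same sum, so their shares are not independent. Slc16a3, Pfkl and Hk1 were also already among the members without overlap, so these shares are not separate results. The other 5 shares overlapped. Among them Pfkm was highest in vehicle replicate 2 at 11.1%, where skeletal muscle markers were also highest. It was 7.87% to 8.86% in rMANF libraries and 7.55% and 7.94% in vehicle replicates 1 and 3.

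**Figure D4:**
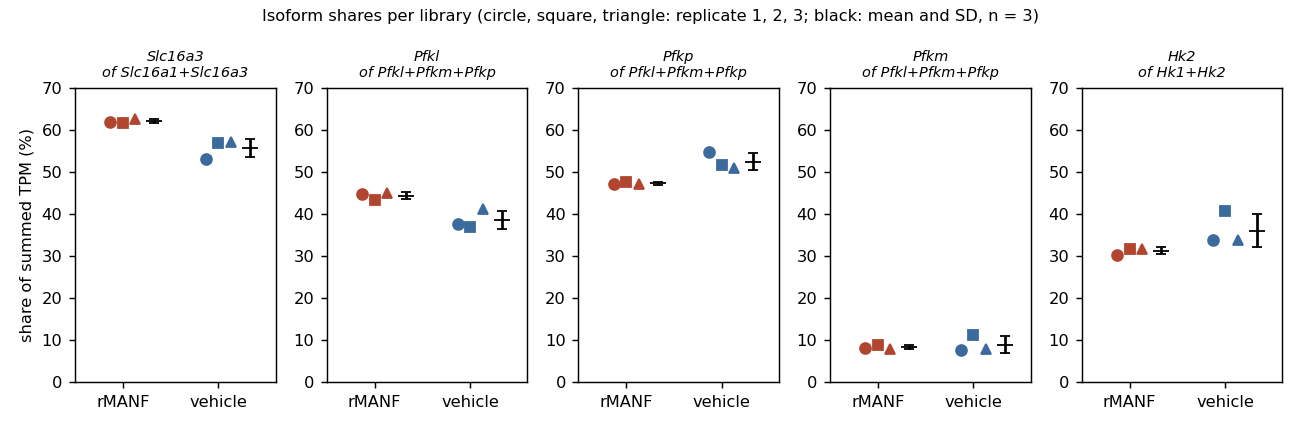
Share of 5 isoforms in the summed TPM of their family (%), rMANF left and vehicle right, with mean and SD (n = 3). The 3 rMANF libraries lie above vehicle for Slc16a3 and Pfkl, below it for Pfkp and Hk2, and overlap for Pfkm.

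Genes next to the members in the same pathways gave shares near the background. Of 122 listed genes 118 had a row and 95 were tested, 16 of them higher and 9 lower without overlap (background 18.9% and 9.02%), and limma called 0. Their median difference was 0.01. Of the 39 tested further hypoxia targets 8 lay higher and 3 lower without overlap. Ddit4, an inhibitor of mTOR signalling, measured 113, 79.5 and 62.9 TPM in rMANF libraries, against 38.6, 39.0 and 49.6 TPM in vehicle libraries (difference 0.96 ± 0.21, limma adjusted p = 0.0947). Pgf, placental growth factor, measured 10.4 ± 0.349 TPM with rMANF and 6.79 ± 0.638 TPM with vehicle, and the growth factor binding gene Igfbp3 182 ± 16.8 TPM with rMANF and 124 ± 34.8 TPM with vehicle. Hmox1, which breaks down haem, lay lower at 118 ± 7.93 TPM with rMANF and 223 ± 71.9 TPM with vehicle (difference −0.86 ± 0.21, limma adjusted p = 0.11). Trf (transferrin) and Fam162a, a nuclear gene whose protein lies in mitochondria, lay lower, with differences of −0.41 ± 0.16 and −0.15 ± 0.08.

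Macrophages express Hmox1 strongly, and their 20 markers, all with rows and tested, summed to 2569 to 3616 TPM with rMANF and 4467 to 5295 TPM with vehicle. The 15 endothelial markers, all tested, summed to 231 to 259 TPM with rMANF and 170.0 to 218 TPM with vehicle. Fibroblast markers (12 with rows) summed to 291 to 384 TPM with rMANF and 359 to 513 TPM with vehicle. The 16 markers of dividing cells summed to 1688 to 1728 TPM with rMANF and 1699 to 1805 TPM with vehicle. Red blood cell markers (6 of 8 with a row) summed to 209 to 302 TPM with rMANF and 196 to 682 TPM with vehicle. Of 10 melanocyte markers 5 had a row, and they summed to 134 to 191 TPM with rMANF and 93.4 to 123 TPM with vehicle, without overlap. Nearly all of that sum was Gpnmb, which macrophages also express, whereas Pmel, Sox10 and Oca2 did not exceed 0.341 TPM in any library. Mitf, the remaining marker, overlapped at 7.36 to 10.2 TPM with rMANF and 7.93 to 12.2 TPM with vehicle. Its difference was −0.16 ± 0.17, opposite in sign to that of Gpnmb. The part of these cell types in any member's difference was not tested. In bulk RNA fewer cells of a type and less RNA per cell cannot be told apart.

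The further oxygen sensing genes followed no single direction. Egln2, another HIF hydroxylase, measured 45.8 ± 1.61 TPM with rMANF and 32.8 ± 3.57 TPM with vehicle (difference 0.48 ± 0.10, limma adjusted p = 0.0947). Hif1an, an asparagine hydroxylase that blocks HIF activity, differed by 0.31 ± 0.11. Eloc and Rbx1, subunits of the ubiquitin ligase that degrades HIF-1α, lay lower, with differences of −0.28 ± 0.09 and −0.24 ± 0.08. Of the 12 tested genes of this list 2 lay higher and 2 lower without overlap, against 18.9% and 9.02% of all tested genes.

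Of the 18 tested other glycolytic and sugar genes, 2 lay higher without overlap and 1 lower, against 18.9% and 9.02% of all tested genes. Galk1, galactokinase, measured 166 ± 5.74 TPM with rMANF and 122 ± 6.35 TPM with vehicle (difference 0.44 ± 0.08, limma adjusted p = 0.0893), and the glucose transporter gene Slc2a8 differed by 0.38 ± 0.13. Pgam2, the muscle phosphoglycerate mutase, measured 0.144, 0.289 and 0.294 TPM in rMANF libraries, against 3.32, 18.2 and 1.13 TPM in vehicle libraries. Its order over the vehicle libraries was that of the skeletal muscle markers. The muscle glycogen phosphorylase gene Pygm had the same order, at 0.181 to 0.241 TPM with rMANF and 1.03, 10.7 and 0.352 TPM in vehicle replicates 1, 2 and 3. Of 8 tested glycogen genes Gys1 (glycogen synthase) lay higher by 0.34 ± 0.09 and the liver phosphorylase gene Pygl lower, at −0.52 ± 0.16. In the pentose phosphate branch 2 of 7 tested genes lay higher without overlap, against 18.9% of all tested genes. They were Pgd, by 0.25 ± 0.08, and Tkt, by 0.16 ± 0.08 (limma adjusted p = 0.166 and 0.326). Among 12 tested genes that pass pyruvate to mitochondria Pcx (pyruvate carboxylase) lay higher by 0.46 ± 0.19 and Pdp2, a pyruvate dehydrogenase phosphatase, lower, at −0.24 ± 0.13.

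Part of the glycolytic values is uncertain for reasons of counting. Processed pseudogenes of these enzymes are common in the mouse genome. For 11 members at least 10% of the 31-base words of their transcripts occur in another annotated gene, from 16.6% for Tpi1 to 68.3% for Pgk1. They are Gpi1, Aldoa, Tpi1, Gapdh, Pgk1, Pgam1, Eno1, Pkm, Ldha, Ldhb and Bnip3. Slc16a3, Slc2a1, Hk1 and Egln1 share none. Counting only genes of the deposited table, the share for Pgk1 was 16.0%. The copies there were listed far below their parent genes, at no more than 0.543 TPM for Gapdh, 4.33 TPM for Pgk1, 3.70 TPM for Pgam1, 2.17 TPM for Eno1, 1.71 TPM for Pkm and 1.00139 TPM for Ldha, over the copies with the most shared words. Higher were Tpi-rs11 and Gm16439, a processed copy of Bnip3 at 20.7 to 23.1 TPM with rMANF and 17.4 to 29.8 TPM with vehicle. Exons of 12 members, Slc2a1, Hk1, Gpi1 and Car9 among them, overlap a gene on the other strand, and the library kit does not mark strand.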

How the data were processed

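The members and gene lists were chosen with earlier results of these data known. The authors deposited log2 TPM per gene and library. The tools named, per the submitters' processing notes, are Salmon 0.14.1, HTSeq 0.11.0, fastp and cutadapt, with the build mm10, and their roles are not stated there. Per the labels' protocols, libraries were made from total RNA by way of cDNA with the Nextera XT kit. A deposited −9, the lowest value, was read as 0 TPM. Powers of 2 of the deposited values summed to the fixed total of TPM within 19.5 TPM in every library. TPM keeps no read number, so depth is unknown and no counting interval was computed. The SDs given are the spread between mice of a group. The limma SEs use a variance per gene that is drawn towards a trend over all tested genes. The table held 0 columns of other samples.

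The 12865 genes averaging 1 TPM or more were tested on log2(TPM + 1) as rMANF minus vehicle with limma 3.58.1 in R 4.3.3 (mean trend, two-sided, Benjamini-Hochberg over all genes, threshold 0.05). This scale makes changes of low genes look smaller. Tested on simulated data of 12865 genes with 200 changed, the procedure recovered 0% of log2 changes of 0.5. It recovered 71.0% of changes of 1 and 92.7% of changes of 2. The members' differences were all smaller than 0.5. Simulated noise was independent between genes, and in the data 20.5% of tested genes had an unadjusted limma p under 0.05. The recovery may therefore differ in these data. Values in every library are given for members without overlap, the most abundant member of each role, Hif1a and Vegfa. From each pathway list at most 3 non-overlapping genes of smallest p per direction are named. Further library values were added after they had been seen, as were the promoters printed. Annotation came from GENCODE M21 (GRCm38, the assembly of mm10) and promoter sequences from RefSeq (GRCm38.p6).

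Spearman correlations across tested genes were 0.988 to 0.989 between rMANF libraries and 0.971 to 0.979 between vehicle libraries. Vehicle replicate 3 correlated at 0.982 to 0.985 with the rMANF libraries, above its 0.977 and 0.979 with vehicle replicates 1 and 2. Vehicle replicates 1 and 2 correlated at 0.9708 with each other. Replicate 1 correlated at 0.9705 to 0.9729 with the rMANF libraries, so replicates 1 and 2 did not stand apart as a pair. Alternatives were other pseudocounts, filters, scalings, variance models, weights per library, a block on replicate number, a GC trend removed from each library by loess with span 0.5, and each library left out.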

Additional observations from a re-analysis of the deposited data

How the results depend on the processing

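Of the 35 members 21 kept the sign of their difference in every alternative that could be fitted, out of 18. The other 14 members turned sign at least once. All 10 members whose groups did not overlap kept their sign. Without overlap the sign cannot turn under other pseudocounts, filters, variance models, library weights, the replicate block or a library left out. For these 10 only the other scalings and the removed GC trend could have turned it. Under median-of-ratios scaling the turned values were −0.0081 for Eno1, −0.032 for Hif1a, −0.0020 for Egln1, −0.038 for Egln3, −0.011 for P4ha1 and −0.0068 for P4ha2. Quantile normalization gave −0.018 for Hk2, 0.034 for Gapdh, −0.0016 for Ldha, −0.020 for Hif1a, −0.023 for Egln1, −0.028 for Egln3, −0.034 for P4ha1 and −0.031 for P4ha2. Rescaling without mitochondrial and haemoglobin genes gave −0.012 for Hif1a and −0.018 for Egln3, and library weights gave −0.051 for Eno1, −0.053 for Egln3 and 0.071 for Adm. The GC trend removed, alone or with the replicate block, gave −0.12 for Eno1, −0.077 for Egln1, −0.022 for Egln3, 0.051 for Bnip3 and −0.0076 for P4ha2. With 1 library left out the ranges were −0.15 to 0.055 for Aldoa, −0.12 to 0.041 for Gapdh, −0.0015 to 0.17 for Pgk1, −0.048 to 0.084 for Eno1, −0.10 to 0.14 for Hif1a, −0.022 to 0.094 for Egln1, −0.060 to 0.11 for Egln3, −0.097 to 0.015 for Bnip3, −0.21 to 0.0013 for Vegfa, −0.17 to 0.16 for Adm, −0.11 to 0.20 for P4ha1 and −0.16 to 0.28 for P4ha2. For other members leaving out 1 library kept the sign but moved the difference by over 1.5 times, with ranges of 0.10 to 0.29 for Slc2a3, 0.20 to 0.44 for Hk1, 0.014 to 0.068 for Hk2, 0.081 to 0.24 for Pfkm, 0.0039 to 0.15 for Pfkp, 0.18 to 0.42 for Aldoc, 0.028 to 0.20 for Tpi1, −0.13 to −0.066 for Pfkfb3, −0.18 to −0.0094 for Pfkfb4, −0.45 to −0.18 for Eno2, 0.010 to 0.12 for Ldha, 0.040 to 0.12 for Slc16a1, 0.063 to 0.22 for Ndrg1 and 0.15 to 0.44 for Ankrd37. The Pfkm share difference ran from −1.27 to 0.521 percentage points and that of Hk2 from −6.00 to −2.53. The causes were not tested.

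Limma called 0 members in all alternatives at 0.05 except with library weights, where it called 3 (Pfkl, Slc16a3 and Car9), and 1 at a threshold of 0.10. Over all genes it called 737 of 12865 with library weights, 3 with the replicate block, 1 with the GC trend removed and 0 to 18 with 1 library left out. At a threshold of 0.10 it called 351 of 12865. At that threshold it called 0 without mitochondrial and haemoglobin genes and 0 with no variance trend. With library weights it called 1859 of 12865 there, against 7 of 35 members. The members without overlap numbered 7 to 11 higher and 3 to 5 lower with 1 library left out, which can only keep or raise these counts. Under quantile normalization 1 lay lower. The median of the pentose phosphate list was 0.12 with library weights, and that of the glycogen list −0.064 without the filter and 0.14 with a filter at 5 TPM. Same-numbered libraries did not deviate together (correlations −0.069, 0.029 and 0.049), so the numbers were not read as pairs. In this balanced design the replicate block leaves every difference unchanged by construction and can alter only its SE and p.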
